A study of Mus musculus with 5 samples.

Results

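Cycling alveolar macrophages (AMs) are the macrophages of the airspace that were caught in the cell cycle at the time of capture. They were chosen from raw UMI counts in 5 droplet scRNA-seq libraries of mouse lung. A barcode was taken as a cycling AM when it had 2 or more UMIs of *Car4*, 1 or more of *Cd68*, 3 or more of *Top2a* and *Mki67* together, and none of *Cd3e* and *Cd79a*, among barcodes with between 300 and 8000 genes, between 800 and 60000 UMIs, and a mitochondrial share below 15%. *Car4* encodes a carbonic anhydrase of the AM surface, *Cd68* a macrophage lysosomal protein, *Top2a* a topoisomerase and *Mki67* the proliferation antigen Ki-67, while *Cd3e* and *Cd79a* mark T cells and B cells. The rule found 1175 cycling AMs among 44772 kept barcodes and among 10211 Car4 macrophages, the latter being all cells that meet the rule apart from its *Top2a* and *Mki67* limit. These genes chose the cells, so their levels are a description and carry no test.

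The study used adult mice of both sexes on a mixed C57BL6/129 background, and the sex behind each library is not given in the sources used here. All libraries came from *Ms4a3-CreER;R26-tdT* mice that received tamoxifen before injury. In this line a tamoxifen-dependent Cre under the control of *Ms4a3* switches on tdT in progeny of granulocyte and monocyte progenitors, so that labeled neutrophils are found beside labeled monocytes. The sham library came from lungs given PBS, and the other 4 came from lungs on day 3, day 7, day 14 and day 28 after intratracheal bleomycin, which injures the alveolar epithelium and leads to fibrosis. Immune cells were enriched by digestion, and the number of mice behind a library is not given in the sources used here. The libraries held 131210167 UMIs in sham, 89769386 on day 3, 151234640 on day 7, 144984156 on day 14 and 167506186 on day 28. With 1 library per time point no test between time points was possible, and every interval below is an exact 95% binomial or counting interval that covers counting error only.

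AMs are seeded before and around birth and maintain themselves in the adult lung by division in place, under the control of GM-CSF and TGF-β, which keep the transcription factor PPARγ switched on. A cell that divides first copies its DNA in S phase, with MCM helicases loaded at origins and PCNA clamped to the polymerases, and then condenses and separates its chromosomes in mitosis, with cyclin B and CDK1 as the driving kinase. Genes of the first step are switched on by E2F factors, whereas genes of the second are switched on late by B-MYB and FOXM1 complexes that bind the CHR element in their promoters.

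Both kinds of promoter sequence are shown here because the 2 waves of genes described below were measured in the same cells. Promoters were RefSeq windows of 250 bases before to 50 after each gene's start (GRCm38.p6), searched on both strands for E2F letters (TTT, then CC, CG, GC or GG, then CGC), for CHR letters (TTTGAA or TTCGAA) and for CCAAT. The 3 most abundant genes of the replication list and of the mitosis list with a match upstream of the start are given, each as 30 bases read 5′ to 3′ on the gene's strand with the match in capitals. A match in capitals that reads GCGGGAAA or TTCAAA is the reverse complement of the letters searched. In the *Mcm5* stretch another E2F match, on the other strand, overlaps the capitals and runs past them unmarked. Before the capitals, the *Mcm7* stretch also holds CHR letters and the *Mcm6* stretch CCAAT on the other strand, both unmarked. *Mcm7*, *Mcm6* and *Mcm5* encode helicase subunits, *Ube2c* the ubiquitin-conjugating enzyme of the anaphase-promoting complex, *Smc2* a condensin subunit and *Ccnb2* cyclin B2.
Mcm7, E2F letters, chr5:138172030-138172059, minus strand: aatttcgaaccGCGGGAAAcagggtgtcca
Mcm6, E2F letters, chr1:128359734-128359763, minus strand: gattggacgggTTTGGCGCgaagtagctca
Mcm5, E2F letters, chr8:75109345-75109374, plus strand: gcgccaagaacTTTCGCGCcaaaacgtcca
Ube2c, CHR letters, chr2:164769888-164769917, plus strand: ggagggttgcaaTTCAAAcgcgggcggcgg
Smc2, CHR letters, chr4:52439064-52439093, plus strand: tcgctttccatgTTCAAAacggtatagtct
Ccnb2, CHR letters, chr9:70421704-70421733, minus strand: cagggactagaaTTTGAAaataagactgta
E2F letters were present in 12 of 26 replication promoters (46.2%) and in 2 of 28 mitosis promoters (7.14%), against 2.60% of all 27025 promoters of the table. CHR letters were present in 6 of 26 replication promoters (23.1%) and in 22 of 28 mitosis promoters (78.6%), against 21.7% of all promoters. CCAAT was found in 69.2% of replication promoters, 78.6% of mitosis promoters and 41.1% of all. Of the nucleotide synthesis genes described below, 1 of 21 promoters (4.76%) held E2F letters and 2 of 21 (9.52%) held CHR letters. Of the AM identity genes described below, 0 of 24 promoters held E2F letters and 6 of 24 (25.0%) held CHR letters. Macrophage transcription factors gave 1 of 18 (5.56%) and 3 of 18 (16.7%). These matches describe the sequences and say nothing of which factor was bound.

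The label of these cells was checked with 12 AM markers that the rule did not use. A cycling AM had UMIs of a median of 11 of the 12 markers, and 1162 of the 1175 cells (98.9%) had 6 or more of them, with a lowest of 2. At an equal depth of 5000 UMIs per cell, *Siglecf*, the AM surface lectin, was detected in 38.4% of cycling AMs and in 42.1% of non-cycling ones, but in 5.68% of cycling *Cd68* cells without *Car4* and 0.936% of B cells. *Krt79*, a keratin gene expressed in AMs, was found in 68.5%, 68.3%, 5.13% and 2.03% of the same groups. *Chil3*, a secreted chitinase-like protein, was found in 99.3% of cycling AMs but also in 46.2% of B cells, so that its detection alone says little about a droplet.

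The threshold cut a falling slope of counts. Of the cycling AMs, 142 had exactly 3 UMIs of *Top2a* and *Mki67*, whereas 365 Car4 macrophages had exactly 2 and 1376 had exactly 1. Most lay well inside, with a median of 21 UMIs, and 1028 had both genes, 119 *Mki67* alone and 28 *Top2a* alone. At the other limit, 73 cycling AMs had exactly 2 *Car4* UMIs and 164 cells with 1 met all other limits. Of B cells, which should lack *Car4*, 111 of 2029 (5.47%) had 2 or more *Car4* UMIs at a median depth of 5576 UMIs, and this share was highest in sham (11.1%) and on day 7 (10.5%). The B cells and neutrophils that follow, and the B cells set beside cycling AMs elsewhere, had no *Car4* or *Cd68* UMI. No such limit was set for the 2029 B cells above, and its part in the background shares was not tested. The *Top2a* and *Mki67* limit was met by 5 of 1243 such B cells (0.402%) at a median depth of 5057 UMIs and by 15 of 1924 such neutrophils (0.780%) at 2792 UMIs. Of the latter 13 were on day 7, where 13 of 124 neutrophils met it, or 10.5% (5.70 to 17.3), at a median depth of 7933 UMIs, against 0% to 0.419% in the other libraries.

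Cycling AMs were large libraries. Their median depth was 25176.5 UMIs in sham, 18440 on day 3, 24777 on day 7, 36780.5 on day 14 and 29019 on day 28. Non-cycling Car4 macrophages, those with no UMI of *Top2a* or *Mki67*, had 16279.5, 15203, 16711.5, 23362 and 18808 UMIs in the same order. The mean number of UMIs per cell was thus 1.51, 1.11, 1.46, 1.42 and 1.45 times higher in cycling cells, and the part of depth in the choice of the non-cycling cells was not tested. Median mitochondrial shares of cycling AMs were 5.32% in sham, 7.72% on day 3, 4.58% on day 7, 7.11% on day 14 and 6.19% on day 28, against 5.50%, 4.27%, 5.04%, 7.02% and 6.19% in non-cycling ones, so that the 7 cells of day 3 stood furthest from their non-cycling counterparts. Scrublet marked 125 cycling AMs (10.6%) as likely doublets, of which 70 were in sham, 3 on day 3, 41 on day 7, 3 on day 14 and 8 on day 28, against 8.12% of non-cycling Car4 macrophages. Pairs of libraries had 22 to 41 cell barcodes in common, 11 cycling AMs had a barcode that was also used in another library, and 0 barcodes were cycling AMs in more than 1 library.

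The share of Car4 macrophages in cycle was far below its sham level on day 3, was highest on day 7 and lay slightly below sham on day 14 and day 28. In sham, 666 of 5271 Car4 macrophages were cycling, or 12.6% (11.7 to 13.6). At day 3 the count was 7 of 630, or 1.11% (0.448 to 2.28). It was 227 of 1493 on day 7, or 15.2% (13.4 to 17.1), where 10.5% of neutrophils met the same limit, 124 of 1204 on day 14, or 10.3% (8.64 to 12.2), and 151 of 1613 on day 28, or 9.36% (7.98 to 10.9). The interval of day 3 lay below all others, and that of day 28 lay below that of sham. Those of day 7 and day 14 each overlapped that of sham at their edges, and those of day 14 and day 28 overlapped widely. Without predicted doublets the shares were 12.4%, 14.0%, 10.6% and 9.68% in sham and on days 7, 14 and 28. Day 7 then lay 1.59 points above sham, against 2.57 points with them. Among all kept barcodes, cycling AMs were 7.21% in sham, 0.0875% on day 3, 2.39% on day 7, 1.60% on day 14 and 1.47% on day 28, while Car4 macrophages were 57.1% in sham and 7.87% to 15.7% after bleomycin.

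Depth differs between the libraries and bears on a count of 3 UMIs, so the share was also taken after thinning every cell to 5000 UMIs. With 1 or more UMIs of *Top2a* and *Mki67* after thinning, a measure chosen after the data had been seen, it was 17.5% in sham, 3.99% on day 3, 19.9% on day 7, 12.2% on day 14 and 11.8% on day 28, in the same order of libraries. When the whole rule was applied to the thinned counts, the shares were 7.02%, 1.04%, 6.71%, 6.17% and 4.68%, so that day 7 no longer lay above sham. The interval of day 3 lay below those of the other 4 libraries under each alternative tried.

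**Figure D1:**
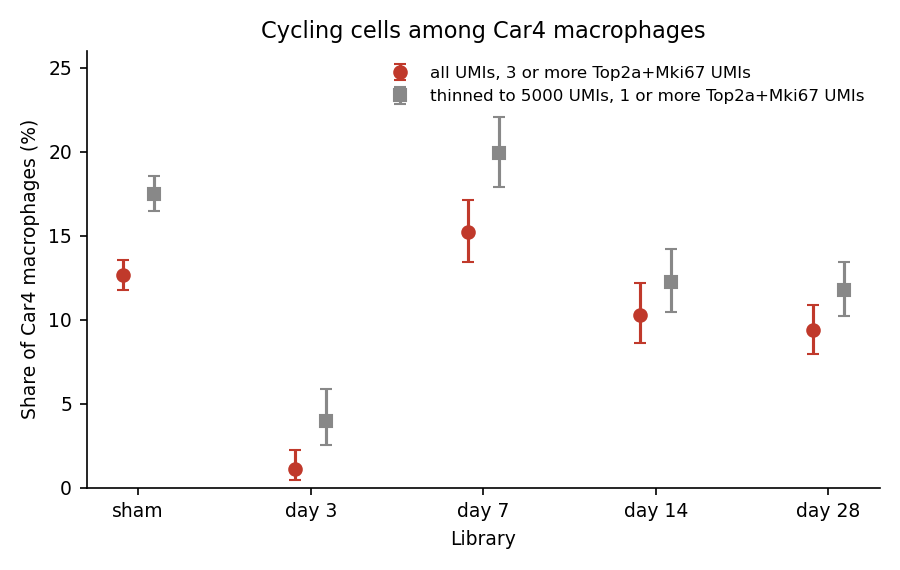
Share of Car4 macrophages that were cycling (y axis, percent) in each library (x axis), with exact 95% intervals. Circles use all UMIs and the limit of 3, squares use cells thinned to 5000 UMIs and a limit of 1; in both, day 3 lies far below the other libraries (1.11% and 3.99%) and day 7 is the highest (15.2% and 19.9%).

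Within the cycle, cells with a mitotic profile outnumbered those with a replication profile in sham and on days 7 and 28. Phases were called from an S score over 43 genes and a G2/M score over 52 genes, neither of which holds *Top2a* or *Mki67*, on cells thinned to 5000 UMIs. In sham, 53.4% (49.5 to 57.2) of 663 cycling AMs were called G2/M and 39.8% S. The G2/M share was 57.7% (51.0 to 64.2) of 227 cells on day 7, 37.4% (28.8 to 46.6) of 123 on day 14 and 59.3% of 150 on day 28. Day 14 was the library that stood apart, with 37.4% in S and 25.2% (17.8 to 33.8) in neither phase, against 6.79% in neither phase in sham, 9.25% on day 7 and 6.67% on day 28. The 7 cells of day 3 held 4 in S and 3 in G2/M. Because *Top2a* and *Mki67* peak late in the cycle, the rule itself favours G2/M, and the part that free RNA plays in phase calls was not tested.

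Levels of cycle genes by phase are a description, since the scores used many of them. In sham, *Pcna*, the sliding clamp, stood at 561 CPM (its UMIs scaled to all UMIs of the cells) in S, 308 in G2/M and 116 in cells of neither phase. *Ccnb1*, cyclin B1, stood at 45.0, 231 and 6.80 CPM. Cells of neither phase had a median of 4 UMIs of *Top2a* and *Mki67* in sham and 3 on days 7 and 14, close to the threshold, against 46 in G2/M and 8.5 in S in sham. The 30 AM identity genes together stood at 32187 CPM in S, 29519 in G2/M and 35103 in neither phase in sham, so that cells of each phase carried them.

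Over all Car4 macrophages, which the late genes of the rule do not select, the S share was 20.3% in sham, 5.98% on day 3, 14.2% on day 7, 9.39% on day 14 and 8.03% on day 28. The G2/M share was 7.29%, 0.664%, 10.6%, 4.11% and 5.73% in the same order. Cells with no *Top2a* or *Mki67* UMI were called S in 14.6% in sham and 4.57% on day 28 but G2/M in 0.282% and 0.161%. The part of background in these S calls was not tested. The G2/M share was lowest on day 3 and highest on day 7, whereas the S share was lowest on day 3 and highest in sham. As few cells without *Top2a* or *Mki67* UMIs were called G2/M, the G2/M share is no independent check of the share of cycling AMs.

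**Figure D2:**
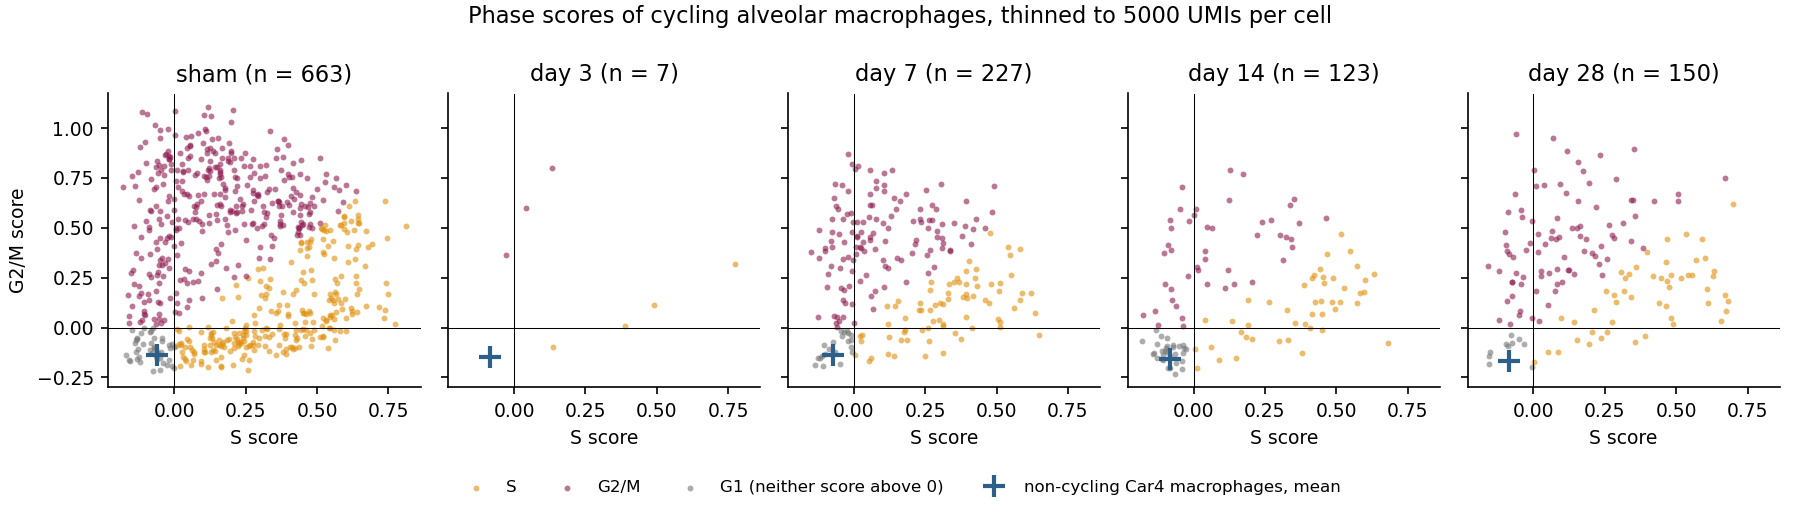
S score (x axis) against G2/M score (y axis), both without unit, of each cycling AM in the 5 libraries, coloured by the phase called, with the mean of the non-cycling Car4 macrophages as a cross. Cells fill an arc from S to G2/M in sham (663 cells) and on days 7 and 28, and on day 14 31 of 123 cells were called neither phase.

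Cell cycle genes are next given by role, as levels in cycling against non-cycling Car4 macrophages. UMIs were summed per class and library, and 4 libraries entered, since day 3 had only 7 cycling AMs. The edgeR quasi-likelihood fit with library as a block tested 11775 genes, of which 18.3% were called higher and 22.0% lower in cycling AMs at an adjusted p under 0.05, with a median log2 difference of -0.05 over all genes. For cell cycle genes this contrast follows from how the cells were chosen, and their counts are a description.

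All 33 replication and licensing genes were higher, with a median log2 difference of 2.32. *Pcna* stood at 394 CPM in sham, 427 on day 3, 251 on day 7, 340 on day 14 and 433 on day 28 in cycling AMs, against 104, 102, 67.3, 98.1 and 97.3 CPM in non-cycling ones, and the classes did not overlap. *Mcm3*, a helicase subunit, was 1.98 ± 0.11 (SE) higher on the log2 scale, and *Mcm10* and *Pole*, an origin-firing factor and the leading-strand polymerase, were 4.86 ± 0.25 and 4.23 ± 0.17 higher. Nucleotide synthesis followed, with 21 of 24 genes higher and a median of 1.17, led by *Rrm2*, the S phase subunit of ribonucleotide reductase (6.44 ± 0.17), and *Tk1*, thymidine kinase (5.02 ± 0.13). Of 20 DNA repair genes, 17 were higher (median 2.79).

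Mitosis genes differed most, with 30 of the 31 measured higher and a median log2 difference of 5.26. *Ube2c* stood at 457 CPM in sham, 458 on day 3, 295 on day 7, 175 on day 14 and 313 on day 28, against 1.65 to 5.14 CPM in non-cycling cells. *Nusap1* and *Cenpf*, a spindle protein and a kinetochore protein, were 7.70 ± 0.15 and 7.52 ± 0.19 higher on the log2 scale. Within cycling AMs the mitosis list summed to 5075 CPM in sham, 3484 on day 7, 2790 on day 14 and 4139 on day 28, whereas the replication list summed to 2451, 1949, 1935 and 2285 CPM. The mitosis sum was thus lowest on day 14, the library with the lowest G2/M share.

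The control genes of the cycle split into those that moved with it and those that did not. Of 31 cyclins, kinases, inhibitors and their transcription factors, 22 were higher, 2 lower and 7 did not pass. *Ccne2* and *Ccna2*, cyclins of S phase entry and of S and G2, were 4.69 ± 0.21 and 7.32 ± 0.17 higher on the log2 scale, and *Cdk1* was 5.05 ± 0.09 higher. *Ccnd2*, a D-type cyclin that links growth factor signals to the cycle, went the other way, at 661 CPM in sham, 442 on day 3, 303 on day 7, 282 on day 14 and 298 on day 28 in cycling AMs against 1041, 642, 515, 348 and 398 CPM in non-cycling ones. It was lower in each library, by -0.64 ± 0.08 on the log2 scale (adjusted p = 8.2e-05). *Cdk6*, a partner kinase of the D cyclins, was also lower (-0.25 ± 0.07), while *Ccnd3* and *Cdk4* were higher (0.41 ± 0.07 and 0.78 ± 0.05).

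Inhibitors did not move as a group. *Cdkn2c* and *Cdkn2d*, inhibitors of CDK4 and CDK6, were 4.75 ± 0.18 and 2.70 ± 0.13 higher on the log2 scale in cycling AMs. *Cdkn1a*, which encodes p21, stood at 485, 482, 600, 521 and 294 CPM in cycling AMs from sham to day 28 and at 365, 1098, 624, 468 and 239 CPM in non-cycling ones, a difference of 0.11 ± 0.07 over the 4 libraries tested (adjusted p = 0.23). The day 3 value of the non-cycling cells was the highest of all. *Myc*, a growth-associated transcription factor, lay at 16.1 to 31.6 CPM in cycling and 15.6 to 22.1 CPM in non-cycling cells, with a log2 difference of -0.06 ± 0.13 (adjusted p = 0.75). *E2f7* and *E2f8*, E2F repressors, were 6.64 ± 0.20 and 6.90 ± 0.15 higher, against 1.00 ± 0.06 for the activator *E2f1*.

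**Figure D3:**
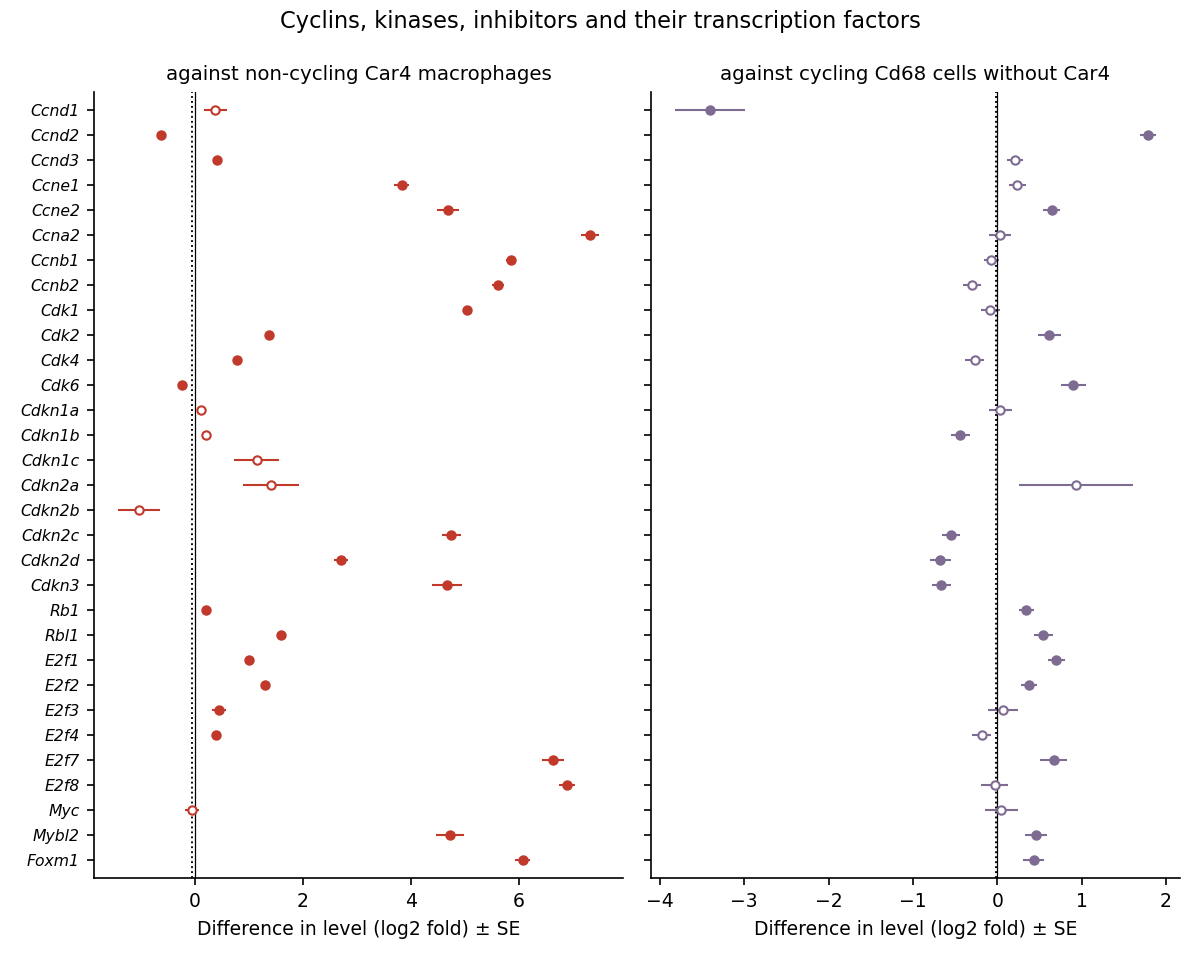
Log2 difference in level with its SE (x axis) of 31 cyclins, kinases, inhibitors and transcription factors (y axis) in cycling AMs against non-cycling Car4 macrophages (left) and against cycling Cd68 cells without Car4 (right), 4 libraries. Filled points have an adjusted p under 0.05 in edgeR and the dotted line is the median of all genes; *Ccnd2* is lower than in non-cycling AMs (-0.64) and higher than in cycling cells without Car4 (1.78).

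AM identity genes, none of which the rule used, were slightly lower per UMI in cycling AMs. Of 30 genes, 28 were lower and 0 higher, against 22.0% lower and 18.3% higher among all genes tested, with a median log2 difference of -0.42. *Fabp4*, a fatty acid binding protein, stood at 357 CPM in sham, 205 on day 3, 198 on day 7, 176 on day 14 and 467 on day 28 in cycling AMs, against 534, 289, 335, 275 and 650 CPM in non-cycling ones. It was lower in each library, by -0.71 ± 0.06 on the log2 scale. *Siglecf* stood at 125, 23.7, 75.5, 84.7 and 97.3 CPM against 124, 122, 103, 120 and 122 CPM, level in sham and lower in the other libraries (-0.40 ± 0.07). *Chil3* stood at 13423, 5822, 8428, 8103 and 9320 CPM against 15504, 10361, 12185, 9993 and 10626 CPM (-0.40 ± 0.07).

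Some genes of AM regulators and receptors, picked from several lists, were lower as shares of UMIs. All genes named here but *Tgfbr2* belong to the identity genes already counted above. *Pparg*, the AM master regulator, was lower by -0.17 ± 0.05 on the log2 scale (adjusted p = 0.022), and *Bhlhe41*, a repressor needed for AM self-renewal, by -0.50 ± 0.06. The GM-CSF receptor genes *Csf2ra*, *Csf2rb* and *Csf2rb2* were lower by -0.36 ± 0.05, -0.33 ± 0.05 and -0.47 ± 0.06, and *Tgfbr2*, a TGF-β receptor, by -0.44 ± 0.05. *Marco*, a scavenger receptor, was the gene that did not follow, at 732, 553, 542, 288 and 339 CPM in cycling and 688, 458, 569, 257 and 210 CPM in non-cycling AMs. It was higher in each library but day 7, and its log2 difference of 0.12 ± 0.10 did not pass (adjusted p = 0.39). *Ctsk*, a cathepsin, also did not pass (-0.05 ± 0.11). Per cell, *Pparg*, *Csf2ra* and *Csf2rb* had more UMIs in cycling AMs in all 4 libraries tested. *Pparg* stood at 3.17 against 2.18 UMIs per cell in sham and 2.27 against 1.70 on day 7. *Bhlhe41* and *Csf2rb2* had more per cell in sham and on days 14 and 28, but fewer on day 7 (3.01 against 3.11 and 1.72 against 1.75).

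Per cell, cycling AMs had 1.51, 1.46, 1.42 and 1.45 times the total UMIs of non-cycling ones in sham and on days 7, 14 and 28, and 80.5% of the 11775 genes tested had more UMIs per cell in all 4 libraries, while 0.611% had more in none. The 30 identity genes together gave 792 UMIs per cycling AM and 630 per non-cycling one in sham, 541 and 515 on day 7, 853 and 717 on day 14, and 822 and 670 on day 28, ratios of 1.26, 1.05, 1.19 and 1.23 that each lay below that of the total. At day 3 the 7 cycling cells had 303 against 438. Of the 30 genes, 20 had more UMIs per cell in cycling AMs in all 4 libraries, 0 in none and 10 were mixed. With library left out of the model 1 of the 30 genes was called lower, and the counts were 26 with each library left out in turn, 26 against cells of like depth and 26 after thinning.

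**Figure D4:**
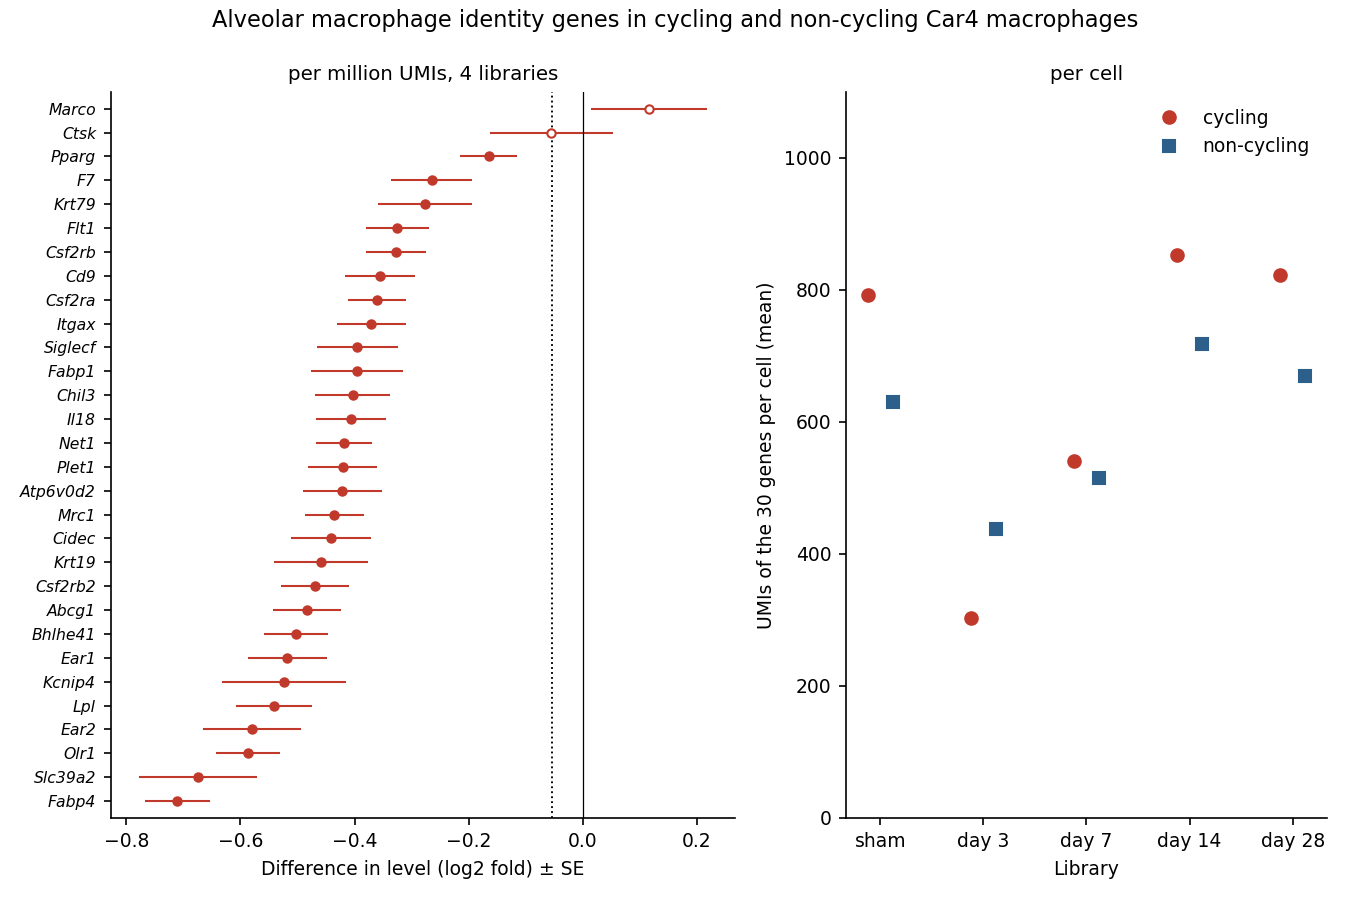
Left, log2 difference in level with its SE (x axis) of 30 AM identity genes (y axis) in cycling against non-cycling Car4 macrophages, 4 libraries, with filled points for an adjusted p under 0.05 in edgeR and the median of all genes as a dotted line. Right, mean UMIs of the 30 genes per cell (y axis) in each library (x axis): 28 genes are lower in CPM, whereas the sum per cell is higher in cycling AMs in every library but day 3, by less than their total UMIs are.

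As shares of UMIs, other macrophage lists also held more lower than higher genes, as did all genes tested (22.0% lower and 18.3% higher). Of 24 macrophage transcription factors, 19 were lower and 0 higher (median -0.29), among them *Cebpa* and *Egr2* (-0.61 ± 0.07 and -0.62 ± 0.06), factors of myeloid and AM differentiation. Per cell the same list summed to 1.31, 1.25, 1.25 and 1.22 times as many UMIs in cycling as in non-cycling AMs in sham and on days 7, 14 and 28, each below the ratio of total UMIs. Of 29 genes of cholesterol and fatty acid synthesis, 20 were lower as shares of UMIs (median -0.31), while per cell the list summed to 1.27, 1.22, 1.22 and 1.28 times as many, again below the total. As a share of UMIs *Msmo1* stood at 61.0 CPM in sham, 55.3 on day 3, 77.2 on day 7, 116 on day 14 and 70.1 on day 28 in cycling AMs and at 92.0, 151, 123, 172 and 115 CPM in non-cycling ones (-0.73 ± 0.05). The share of this sterol demethylase was lower in each library. Of 25 growth factor receptor and signalling genes 12 were lower, and of 13 immediate early genes 8 were lower, of which 2 passed against cells of like depth.

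Stress and injury lists did not move as one. Over all genes tested 18.3% were higher and 22.0% lower. Of 21 p53 targets tested, 3 were higher and 6 lower (median -0.05), and the highest of these, *Ckap2* (6.12 ± 0.15), is itself a spindle protein. *Btg2*, an antiproliferative p53 target, was lower by -0.50 ± 0.08 and *Mdm2* by -0.19 ± 0.05. Of 18 scar-associated genes 11 were lower (median -0.36), and of 15 glycolysis genes 2 were higher and 4 lower. The counts of p53 targets and glycolysis genes lay near the shares over all genes. Of 22 interferon-stimulated genes 1 was higher and 2 lower. Of 17 cytokines and chemokines 1 was higher and 6 lower, with *Il1b* at -0.65 ± 0.14. Per cell the scar-associated list summed to 1.3, 1.20, 1.17 and 1.17 times as many UMIs in cycling as in non-cycling AMs in sham and on days 7, 14 and 28, below the ratios of total UMIs, and the glycolysis list to 1.40 to 1.52 times as many, close to them. Of 7 MHC class II genes 1 was lower, *H2-DMa* (-0.37 ± 0.08), and with day 28 left out 5 were higher. Their sum in cycling AMs was 1444, 4125, 2067 and 1678 CPM in sham and on days 7, 14 and 28. Non-cycling AMs gave 670, 2808, 2076 and 2674 CPM. Per cell the list summed to 3.25, 2.14, 1.42 and 0.910 times as many UMIs in cycling AMs, and in sham 5 cells held 46.9% of the *Cd74* UMIs. Of 14 interstitial macrophage genes 5 were lower, and of 10 monocyte genes 1 was higher, *Ccr2*, the monocyte chemokine receptor (0.57 ± 0.12), and 4 were lower.

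Markers of cell types other than monocytes and macrophages were called lower or did not pass. Tested were 8 T cell, 4 B cell, 7 neutrophil, 8 dendritic cell, 6 endothelial and 8 epithelial markers. Of these 2, 2, 4, 3, 4 and 2 were lower and 0 higher, against 22.0% lower and 18.3% higher among all genes tested. The T cell and epithelial counts lay near the share of lower genes over all genes. Of 4 NK cell and 6 fibroblast markers none passed in either direction. Of 4 red cell and platelet genes all 4 were lower (median -3.16), *Hbb-bs* from 111 CPM in non-cycling to 18.8 CPM in cycling AMs of the sham library. Per cell, the summed epithelial markers gave 16.7 UMIs per cycling AM in sham, 6 on day 3, 120 on day 7, 14.5 on day 14 and 61.3 on day 28, and 33.1, 3.05, 34.4, 12.4 and 18.7 per non-cycling AM. On days 7 and 28 they were thus 3.49 and 3.27 times higher in cycling AMs. Neutrophil markers gave 18.9 UMIs per cycling and 8.39 per non-cycling AM in sham, a ratio of 2.26, where 1 cell held 68.3% of the *S100a9* and 63.2% of the *S100a8* UMIs, and 0.697 to 1.10 times the non-cycling value on days 7, 14 and 28. Dendritic cell markers gave 0.716 against 0.324 and NK cell markers 0.697 against 0.258 UMIs per cell in sham. On days 7, 14 and 28 the dendritic cell ratios were 1.24, 0.371 and 0.795. The NK cell ratios were 1.77, 0.242 and 22.9, the last from 0.238 against 0.0104 UMIs per cell. The fibroblast markers gave 9.89 UMIs per cycling and 1.75 per non-cycling AM on day 7, where 1 cell held 1442 of the 1596 *Mgp* UMIs (90.4%). The most abundant epithelial marker was *Scgb1a1*, the club cell secretory protein, which had UMIs in 99.5% of cycling AMs in sham, and on days 7 and 28 87.5% and 93.1% of its UMIs lay in 5 cells.

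By a rule of size, the genes outside the S, G2/M, replication, mitosis, nucleotide and DNA repair lists with the largest rises, cyclins and their regulators included, were *Hist1h1b*, *Esco2*, *Ccna2*, *2810417H13Rik*, *Pbk*, *Kif15*, *Aspm*, *Casc5*, *Iqgap3* and *Foxm1*, with log2 differences from 7.86 ± 0.10 for the first to 6.07 ± 0.14 for the last. Most have known roles in chromatin replication, sister chromatid cohesion, spindles or their transcription. The largest falls were far smaller. *Hist1h2bc* and *Hist1h1c*, histone genes, were lower by -1.53 ± 0.09 and -0.78 ± 0.06, and *Mxd4*, an antagonist of MYC, by -0.91 ± 0.07. *Aldoc*, a glycolytic aldolase, lay between *Hist1h2bc* and *Mxd4*, and *Slpi*, *Mmp19*, *Zbtb4*, *Rhob*, *Junb* and *Samhd1* followed, from -0.85 ± 0.10 to -0.75 ± 0.09, the last being a dNTP hydrolase that lowers nucleotide pools in resting cells.

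Cycling *Cd68* cells without *Car4* were compared next, as cells chosen by the same cycle genes. There were 929 of them, 50 in sham, 51 on day 3, 549 on day 7, 158 on day 14 and 121 on day 28, and they passed the same *Top2a* and *Mki67* limit. Their median count of both genes together was 23 in sham, 15 on day 7, 6 on day 14 and 12 on day 28. Cycling AMs had 23, 17, 17.5 and 24. Median depth was 19097, 21538, 31413 and 24164 UMIs, against 25176.5, 24777, 36780.5 and 29019 in cycling AMs. The part of these differences in the comparison was not tested. In the same 4 libraries 10606 genes were tested, of which 8.83% were higher and 12.1% lower in cycling AMs. Identity genes differ here by the choice on *Car4* (24 of 30 higher, 1 lower), which is a description, and *Marco*, *Lepr*, *Krt79*, *Acaa1b*, *Cpne5*, *Ear1*, *Wfdc21*, *Cidec*, *C530008M17Rik* and *Prom1* had the largest rises, from 3.42 ± 0.67 to 2.30 ± 0.48. On the other side, *Mgl2*, *Fcrls*, *Tmem176a*, *Plbd1*, *C1qa*, *C1qb*, *Amica1*, *Tmem176b*, *C1qc* and *Ccl17* were lower, from -4.45 ± 0.46 to -4.00 ± 0.38. All 7 MHC class II genes, 13 of 14 interstitial macrophage genes and 8 of 8 dendritic cell genes were lower in cycling AMs, and the part of other *Cd68* cell types in this comparison was not tested.

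For the cycle machinery the differences were small. Of 43 S phase genes, 9 were higher in cycling AMs and 0 lower (median 0.29), and with a library left out 1 to 8 were higher (1 without day 14, 3 without sham or day 7). Of 52 G2/M genes 0 were higher and 5 lower (median -0.11), and of 31 mitosis genes 3 were lower. *Pcna* stood at 220 CPM in sham, 187 on day 3, 159 on day 7, 183 on day 14 and 374 on day 28 in cells without *Car4*, lower than in cycling AMs in each library (0.53 ± 0.12, adjusted p = 0.020). *Cdc20*, the activator of the anaphase-promoting complex, was lower in cycling AMs (-0.54 ± 0.10, adjusted p = 0.012), while *Ccnb1* and *Plk1*, a mitotic kinase, differed by -0.07 ± 0.09 and 0.03 ± 0.10 and did not pass.

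Among the regulators of the cycle, D cyclins differed in opposite directions. *Ccnd1* stood at 6.85 CPM in sham, 174 on day 3, 39.8 on day 7, 5.74 on day 14 and 2.99 on day 28 in cycling AMs, against 157, 204, 148, 73.5 and 34.6 CPM in cycling cells without *Car4*. It was lower in AMs in each of the 4 libraries tested (-3.41 ± 0.41, adjusted p = 0.0025). *Ccnd2* was the opposite, at 171, 200, 74.5, 70.5 and 95.5 CPM in cells without *Car4*, below the AM values in each library (1.78 ± 0.09, adjusted p = 0.00025). *Cdk6*, *Cdk2* and *E2f1* were higher in AMs (0.90 ± 0.15, 0.62 ± 0.14 and 0.70 ± 0.10), and the inhibitors *Cdkn2c*, *Cdkn2d*, *Cdkn3* and *Cdkn1b* were lower (-0.55 ± 0.11, -0.68 ± 0.13, -0.66 ± 0.11 and -0.44 ± 0.11). In all, 11 of 29 genes of this list were higher and 5 lower, of which 4 to 10 and 3 to 4 passed with a library left out and 1 and 0 with library left out of the model.

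All 13 immediate early genes and 14 of 23 interferon-stimulated genes were lower in cycling AMs than in cycling cells without *Car4* in the model with library as a block, and 0 of either list passed with library left out of it. The immediate early genes had a median difference of -0.99 (9 to 12 genes lower with a library left out), with *Fos*, a subunit of the AP-1 transcription factor, at 1165 CPM in sham, 1367 on day 3, 1678 on day 7, 1512 on day 14 and 1088 on day 28 against 2485, 1523, 2163, 2054 and 1583 CPM (-0.73 ± 0.14, adjusted p = 0.011). *Fos* was lower in AMs in each library. Of the interferon-stimulated genes 0 were higher (median -1.12). The 14 lower ones, among them *Isg15* (-1.67 ± 0.31), became 7 without day 7 and 8 without day 14. Of 29 cholesterol and fatty acid synthesis genes 7 were higher, led by *Scd1*, the stearoyl-CoA desaturase (1.46 ± 0.24).

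The content of cycling AMs differed between libraries. The libraries of days 7, 14 and 28 were each set against sham with no test, over genes that reached 100 CPM in one of the pair. Genes past 2-fold were counted. At day 7, 52 of 1880 genes (2.77%) were higher and 32 (1.70%) lower, on day 14 52 of 1930 (2.69%) and 61 (3.16%), and on day 28 50 of 1903 (2.63%) and 86 (4.52%). Non-cycling Car4 macrophages of the same libraries gave 53 and 39, 70 and 57, and 73 and 84 genes. These comparisons have the sham library in common.

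Genes of the fibrotic macrophage state differed in their course. The scar-associated list summed to 14314 CPM in sham, 9053 on day 3, 18575 on day 7, 24463 on day 14 and 26996 on day 28 in cycling AMs, and to 16631, 22578, 22547, 29844 and 33526 CPM in non-cycling ones. Among its members *Gpnmb*, a lysosomal glycoprotein, stood at 578, 182, 442, 261 and 598 CPM in cycling AMs, below sham on days 3, 7 and 14. *Fn1*, fibronectin, stood at 181 CPM in sham, 529 on day 3, 716 on day 7, 1876 on day 14 and 1237 on day 28 in cycling AMs, and at 192, 889, 711, 2163 and 1755 CPM in non-cycling ones. *Spp1*, osteopontin, stood at 1072, 1422, 3206, 7453 and 6309 CPM, and at 803, 6093, 3102, 8864 and 8982 CPM in non-cycling cells. In cycling AMs both were highest on day 14, whereas *Spp1* in non-cycling cells was already at 6093 CPM on day 3 and was highest on day 28. At full depth all 124 cycling AMs of day 14 had UMIs of each, and 124 had 5 or more of *Spp1* and 120 of *Fn1*. The part of free RNA in this detection was not tested. *Mfge8*, a bridge to apoptotic cells, was late, at 9.30, 15.8, 32.9, 15.4 and 346 CPM against 4.95, 13.3, 25.1, 41.5 and 499 CPM, and *Mmp12*, the macrophage elastase, went from 16.4 CPM in sham to 173 CPM on day 28 (10.5 and 307 CPM in non-cycling cells). On day 28 the 5 cells with the most held 49.3% of the *Mfge8* and 66.6% of the *Mmp12* UMIs of cycling AMs, and 11.3% of these AMs had 5 or more *Mmp12* UMIs.

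In further genes with large ratios, too, part of the UMIs lay in few cells. *Apoe*, a lipid carrier, stood at 15.7 CPM in sham, 47.4 on day 3, 1283 on day 7, 1167 on day 14 and 655 on day 28 in cycling AMs (44.9, 225, 1191, 1689 and 1480 CPM in non-cycling ones). At full depth 1 or more *Apoe* UMIs were found in 221 of 227 cycling AMs on day 7, in all 124 on day 14 and in 148 of 151 on day 28. Of these, 88, 104 and 101 cells had 5 or more. The 5 cells with the most held 46.3% of its UMIs on day 7, 64.3% on day 14 and 52.3% on day 28. The part of free RNA in this detection was not tested. *C1qa*, a complement subunit of interstitial macrophages, went from 0.527 CPM in sham, 9 UMIs in 9 cells, to 288 CPM on day 7, where 98 of 227 cells had it and 5 cells held 48.1%. *Mgp* and *Retnla*, past 2-fold on day 7 with log2 ratios of 6.84 (6.39 to 7.34) and 6.68 (6.29 to 7.09), had 95% and 93.0% of their UMIs in 5 cells. *S100a9*, a neutrophil gene with log2 ratios of -2.78 on day 14 and -5.89 on day 28, had 83.4% of its sham UMIs in 5 cells, and without predicted doublets the ratios were -0.43 and -3.59.

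The remaining named genes are given beside the non-cycling cells. *Scd1* had a log2 ratio of 3.69 on day 28 (2.95 in non-cycling cells). Genes lower than in sham included *Krt79* at -1.97 and the zinc transporter gene *Slc39a2* at -1.95 on day 7 (-2.15 and -1.18 in non-cycling cells), *Hist1h2ap*, a histone gene, at -5.19 on day 14 (-4.83) and *Rasgef1b* at -3.26 on day 28 (-3.52). *Gm8730* was lower in both classes on days 7, 14 and 28, *Gm10076* on days 14 and 28, and *Cwc22* and *Erdr1* on day 7. *Rpl29*, a ribosomal protein gene, went from 846 CPM in sham to 4.85 on day 14 in cycling AMs and from 835 to 5.52 CPM in non-cycling ones. The pseudogene-like and ribosomal entries share sequence with near copies, and how reads were split among these was not tested.

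Over all genes at 100 CPM, 2.77%, 2.69% and 2.63% were past 2-fold higher on days 7, 14 and 28. On the same days 1.70%, 3.16% and 4.52% were past 2-fold lower. By list, 7 of 15 scar-associated genes at 100 CPM were past 2-fold higher on day 28. On days 7 and 14 these were 3 of 13 and 3 of 13. Of the scar-associated genes 1, 2 and 1 were past 2-fold lower on days 7, 14 and 28. Their median log2 ratio was -0.17 on day 7, 0.39 on day 14 and 0.94 on day 28. MHC class II genes were 4 of 6 higher on day 7 and 0 on days 14 and 28, with *Cd74*, the invariant chain, at 623 CPM in sham, 1748 on day 7, 966 on day 14 and 782 on day 28. In sham 5 cells held 46.9% of the *Cd74* UMIs and 3.45% of cycling AMs had 5 or more, against 57.7% on day 7, 63.7% on day 14 and 57.0% on day 28. In non-cycling cells the median log2 ratio of the MHC class II list was 2.37, 1.73 and 2.35 on days 7, 14 and 28. Of 29 identity genes 0 were past 2-fold higher and 5, 6 and 5 were lower on days 7, 14 and 28, and their sum went from 30884 CPM in sham to 20711, 23344 and 26556 CPM. Of 7 or 8 p53 targets 0, 0 and 1 were higher and 0, 2 and 3 lower. Of cholesterol and fatty acid genes 1 of 4, 4 of 7 and 3 of 5 were higher. At day 7, 1 interferon-stimulated gene reached 100 CPM and was higher. Of interstitial macrophage genes 4 of 5, 4 of 5 and 1 of 2 were higher on days 7, 14 and 28. Their median log2 ratio was 7.79, 6.22 and 2.44, against 4.34, 4.41 and 2.34 in non-cycling cells. Of immediate early genes 3 of 11 were higher on day 7, and on day 28 1 of 10 was higher and 5 lower. Of cytokines and chemokines 5 of 11 were higher on day 7, and on day 28 1 of 8 was higher and 6 lower.

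**Figure D5:**
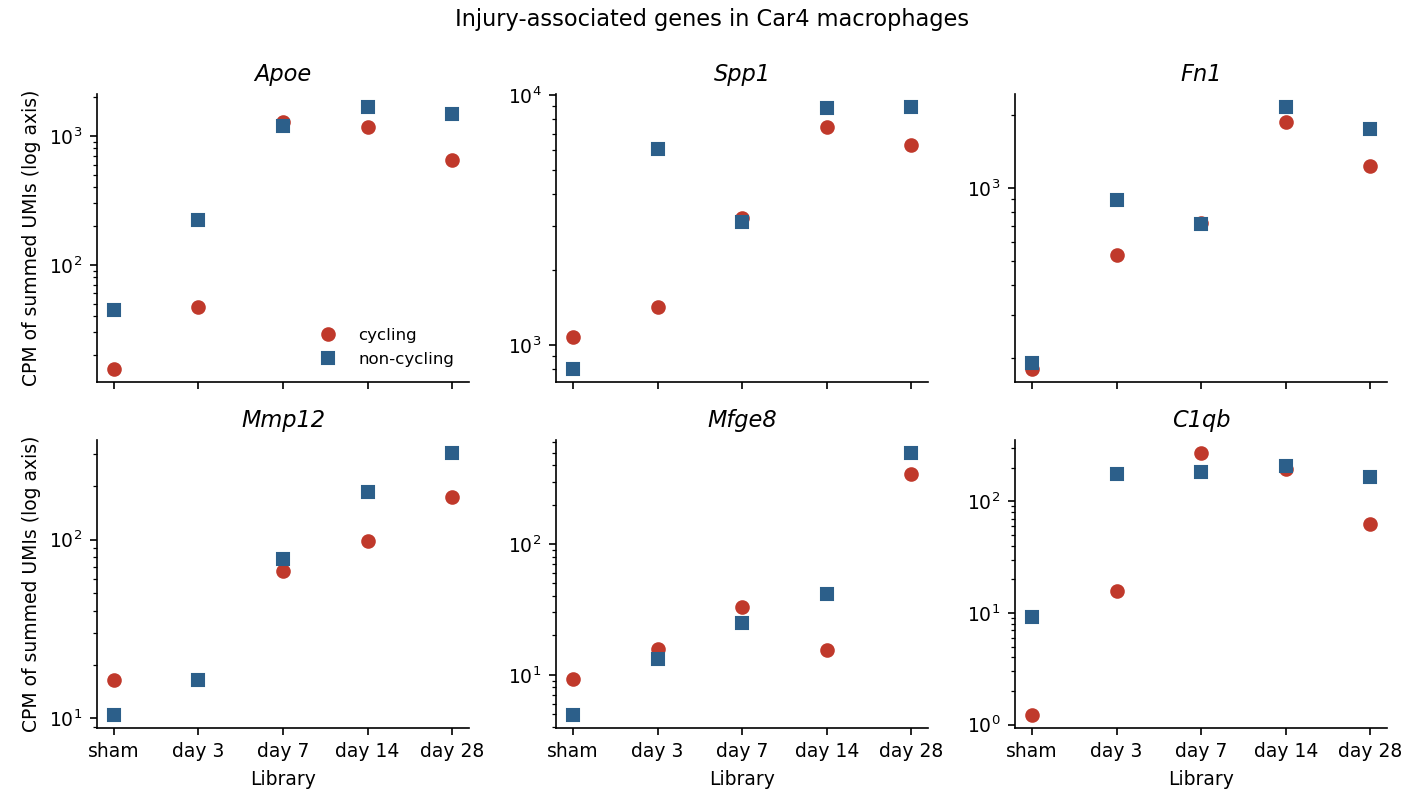
CPM of summed UMIs (y axis, log scale) of 6 injury-associated genes in cycling and non-cycling Car4 macrophages of each library (x axis). *Spp1* and *Fn1* peak on day 14 or day 28 in both classes and *Mfge8* on day 28 (346 and 499 CPM); *Mmp12* is at 0 in the 7 cycling cells of day 3, which a log axis cannot show.

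Of the 18 scar-associated genes, 3 were counted together in single cells. Cells with UMIs of all of *Gpnmb*, *Mmp12* and *Mfge8* at 5000 UMIs were 1 of 663 cycling AMs in sham, 0 of 7 on day 3, 1 of 227 on day 7, 1 of 123 on day 14 and 18 of 150 on day 28, or 12% (7.27 to 18.3). Non-cycling cells gave 154 of 1246 on day 28, or 12.4%. B cells at the same depth, which should lack these genes, gave 0 of 35 in sham, 0 of 350 on day 3, 0 of 152 on day 7, 1 of 47 on day 14 and 2 of 57 on day 28, or 3.51% (0.428 to 12.1), an interval that overlapped that of cycling AMs. *Spp1*, also on the list, had a UMI in 88.4% of cycling AMs in sham, 57.1% on day 3, 95.2% on day 7, 99.2% on day 14 and 100% on day 28 at this depth, and in 17.1%, 29.4%, 48.0%, 95.7% and 91.2% of B cells. Read the other way, with 1 or more *Top2a* and *Mki67* UMIs after thinning as the measure of cycling, 23 of 204 triple-positive Car4 macrophages (11.3%, 7.28 to 16.4) and 166 of 1402 others (11.8%, 10.2 to 13.7) were cycling on day 28, and the intervals overlapped.

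The monocyte-lineage reporter was read from an RFP feature in the files, taken as tdT. At 5000 UMIs per cell, 1 or more RFP UMIs were found in 26.1% of cycling AMs in sham, 26% on day 7, 70.7% on day 14 and 37.3% on day 28, and in 4 of 7 on day 3. B cells, which should lack the label, gave 25.7%, 28.3%, 57.4% and 28.1% in the same libraries and 18.6% on day 3. Without predicted doublets the B cell share of sham was 14.3% (4 of 28, 4.03 to 32.7) and that of cycling AMs 25.4%. Non-cycling AMs of sham stood at 40.9% (39.3 to 42.6), above the cycling ones at this depth. Without thinning the gap was absent. Cycling AMs of sham then stood at 77.2% (73.8 to 80.3) and non-cycling ones at 75.1% (73.6 to 76.5), intervals that overlapped. The shares of cycling AMs in sham and on day 7 lay within the B cell intervals, and those of day 14 and day 28 had intervals that overlapped it (61.9 to 78.6 against 42.2 to 71.7, and 29.6 to 45.6 against 17.0 to 41.5).

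At a limit of 3 RFP UMIs the intervals of cycling AMs and B cells did not overlap on days 14 and 28, and without predicted doublets they overlapped on day 28. The limit was met by 1.36% of cycling AMs in sham and 3.08% on day 7, against 11.4% (4 of 35) and 6.58% of B cells there, but by 38.2% (29.6 to 47.4) on day 14 and 18.7% (12.8 to 25.8) on day 28, against 12.8% (4.83 to 25.7) and 3.51% (0.428 to 12.1) of B cells. Without predicted doublets the day 28 shares were 18.3% (12.3 to 25.7) and 3.64% (0.443 to 12.5), and those of day 14 were 39.2% (30.4 to 48.5) and 11.1% (3.71 to 24.1). In sham 0 of 28 B cells met it without them (exact interval up to 12.3%), and 1.18% of cycling AMs did. Non-cycling AMs gave 27.6% (24.5 to 30.9) and 18.5% (16.4 to 20.8) on days 14 and 28. Among Car4 macrophages with 3 or more RFP UMIs, 52 of 369 (14.1%, 10.7 to 18.1) were cycling on day 14 and 29 of 299 (9.70%, 6.59 to 13.6) on day 28, by the thinned measure, against 94 of 824 (11.4%, 9.32 to 13.8) and 160 of 1307 (12.2%, 10.5 to 14.1) of those with fewer. These intervals overlapped in both libraries. In sham the same measure gave 18 of 191 (9.42%, 5.68 to 14.5) with 3 or more and 881 of 4955 (17.8%, 16.7 to 18.9) with fewer, which did not overlap.

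The 7 cycling AMs of day 3 were of mixed make-up. The 3 that Scrublet marked as doublets were the 3 with 50 or more *Cd74* UMIs (165, 287 and 311), whereas the other 4 had 0 to 3. The latter had 4 to 22 UMIs of *Marco* and 121 to 189 of *Chil3*, and without the marked cells the share of day 3 was 4 of 565, or 0.708% (0.193 to 1.80).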

How the data were processed

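Lung immune cells were profiled with the 10X 3′ v3.1 kit, and the authors deposited UMI counts per gene and barcode. Their processing notes name Cell Ranger 6.0.0 and mm10, whereas the matrix headers name software version 3.1.0, so which annotation made the counts of genes with near copies is uncertain. The counts are not normalized. The members and gene lists were chosen with earlier results of these data known. Named genes were the most abundant and the most different members of each list, the 10 largest differences in each direction outside the cell cycle lists (same direction in every library, mean of at least 50 CPM in either class), and the 5 largest ratios to sham in each direction at 100 CPM. UMIs were summed per class and library and tested with edgeR 4.0.16 in R 4.3.3 (TMM, filterByExpr, quasi-likelihood test, Benjamini-Hochberg adjustment), with library as a block, since both classes of a library come from 1 capture. Day 3 was left out of these tests, with fewer than 10 cycling cells. The fit was tested on simulated data. Doublets were predicted with Scrublet (Scanpy 1.11.5) and kept, unless stated. P-values measure the spread between 4 libraries. Alternatives were DESeq2 1.42.0, other scaling and filters, thinning, and libraries left out. The thinned share with a limit of 1 UMI, and the non-cycling values beside the ratios to sham, were added after the data had been seen. Some named genes are not reported here.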

Additional observations from a re-analysis of the deposited data

Results flagged for a closer look

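The 7 cycling AMs of day 3 entered no test, and their summed levels of 2 lists stood above the sham library. The interferon-stimulated genes summed to 3610 CPM against 219 CPM in cycling AMs of sham, and non-cycling Car4 macrophages gave 3991 and 198 CPM. The MHC class II genes summed to 16929 CPM against 1444 CPM, and in non-cycling cells to 2121 and 670 CPM. The 3 cells with 50 or more *Cd74* UMIs were the 3 that were predicted to be doublets, and the part of doublets in these sums was not tested.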

How the results depend on the processing

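The share of cycling AMs moved with the limits. With 2 or more *Top2a* and *Mki67* UMIs it was 16.3% in sham, 19.3% on day 7, 15.4% on day 14 and 12% on day 28. With 5 or more it was 10.3%, 12.7%, 7.72% and 8.06% in sham and on days 7, 14 and 28, so that day 28 lay above day 14. With 1 *Car4* UMI allowed it was 7.89% on day 28. With the rule on counts thinned to 5000 UMIs it was 7.02%, 6.71%, 6.17% and 4.68% in sham and on days 7, 14 and 28. With 1 UMI after thinning, chosen after seeing the data, it was 17.5%, 3.99%, 19.9%, 12.2% and 11.8% from sham to day 28. The difference of day 3 from sham was -14.3, -9.31, -5.98 and -13.5 percentage points under these 4 limits of 2 UMIs, 5 UMIs, the thinned rule and 1 thinned UMI. The thinned rule turned day 7 less sham to -0.313 points, and 1 thinned UMI gave -5.23 on day 14 and -5.70 on day 28. The cause was not tested.

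The G2/M share was 57.6% in sham and 47.2% on day 14 with standardized means, and 48.9% on day 7 without thinning. Without thinning the reporter was found in 77.2%, 66.1%, 97.6% and 71.5% of cycling AMs in sham and on days 7, 14 and 28, and with a limit of 3 UMIs on thinned cells in 1.36%, 14.3%, 3.08%, 38.2% and 18.7% from sham to day 28. At 50 CPM the genes past 2-fold were 91 higher and 63 lower on day 7, 98 and 107 on day 14, and 89 and 129 on day 28, and at 200 CPM they were 33 and 18, 23 and 42, and 27 and 50.

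Without the library block, which pairs the classes of a capture, 935 genes were higher and 142 lower in cycling against non-cycling AMs, and 75 and 320 against cycling cells without *Car4*. Of 181 named genes past the threshold, 116 no longer passed without the block. Thinned counts gave 1327 lower genes in the first comparison, and no filter on low counts gave 1406 higher in the second. With a library left out the first gave 1886 to 2037 higher and 1821 to 2219 lower, and the second 318 to 849 higher and 676 to 1171 lower, the lowest count of higher genes without day 14 (401 without day 7). No gene past the threshold changed direction in these alternatives. Among those not past it, the log2 difference of *Marco* ran from -0.042 (without day 28) to 0.23 (without day 7) and was -0.065 against cells of like depth. That of *Ctsk* ran from -0.18 (without sham) to 0.062 (without day 7), was 0.059 without day 14 and was 0.024 with thinned counts. That of *Myc* ran from -0.22 (without day 7) to 0.048 (without sham), was 0.021 without day 14 and was 0.11 against cells of like depth. That of *Plk1* against cycling cells without *Car4* ran from -0.030 (without sham) to 0.087 (without day 7). Counts from 1 library per time point limit every comparison over time.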
